A study of Homo sapiens with 6 samples.

Results

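HSF1, the transcription factor that drives the heat shock response, and 9 genes of cytosolic heat shock proteins were followed in HuCCT-1 cells exposed to the PRMT5 inhibitor JNJ-64619178. HuCCT-1 is an established human line from a bile duct cancer, and PRMT5 is an enzyme that adds symmetric dimethyl marks to arginine residues of proteins. The 10 genes were HSF1, HSPH1, HSPA1A, HSPA1B, HSPA8, HSP90AA1, HSP90AB1, DNAJB1, DNAJB4 and HSPB1. They were found by symbol among the 60605 genes in the count table, and all 10 passed the filter on low counts that left 17371 genes to test. For 4 days the cells received either JNJ-64619178 at 6 nM (JNJ) or its solvent alone in equal volume (DMSO), with 3 libraries of polyadenylated RNA in each group. The labels give no genotype difference between the groups, and both rest on 1 cell line, 1 dose and 1 time. Counts per library lay between 23931991 and 28224911 with JNJ and between 28133746 and 30691914 with DMSO. The labels do not say whether the 3 libraries of each group were separate cultures, and p-values therefore measure only the spread between these libraries, which may be technical.

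Heat shock proteins are chaperones: they hold unfolded proteins, refold them or pass them on for degradation. HSF1 is held inactive by chaperones in unstressed cells, and on heat or other protein damage it forms trimers, binds repeats of the unit GAA and its complement TTC in promoters, and raises transcription of chaperone genes. In cancer cells HSF1 is also known to support growth outside classical heat stress, and HSP90 keeps many oncogenic kinases folded.

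With JNJ, 3 of the 10 genes were higher (HSF1, HSPH1 and HSPB1), 1 was lower (DNAJB4) and 6 did not pass the test (HSPA1A, HSPA1B, HSPA8, HSP90AA1, HSP90AB1 and DNAJB1). The test was edgeR's quasi-likelihood fit over all 17371 genes at a Benjamini-Hochberg adjusted p under 0.05. It called 37.1% of all genes, 20.0% higher and 17.1% lower, so a count of 4 called among 10 lies close to the background. The median log2 fold change of the 10 genes was 0.05, beside 0.00 over all genes tested. The libraries of the 2 groups did not overlap for 6 of the 10 genes, and they did not overlap for 47.0% of all genes. With upper-quartile scaling the split over all genes was 2800 higher and 4099 lower, against 3478 and 2970 with the scaling used here, and the median of the 10 genes was -0.01. Since RNA came from whole cultures, fewer cells of a type and less RNA per cell cannot be told apart in any of these values.

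**Figure D1:**
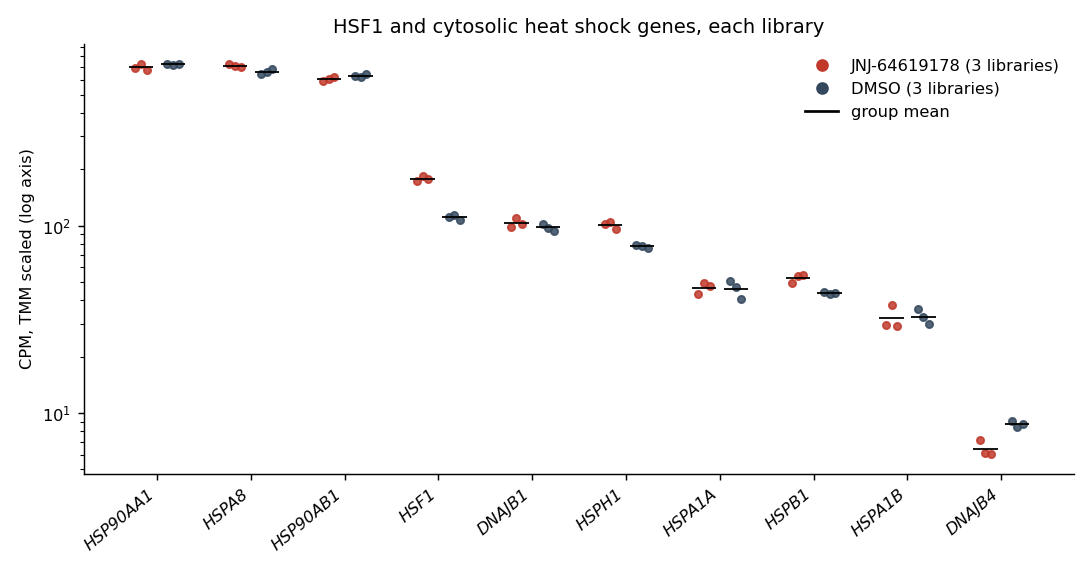
Normalised level of each of the 10 genes in every library, in CPM (counts scaled to a common library size) on a log axis, with JNJ libraries in red left of DMSO libraries in blue and a black bar at each group mean. HSF1 lies between 173 and 184 CPM in the 3 JNJ libraries and between 107 and 114.5 CPM in the 3 DMSO libraries, while the points of HSP90AA1, DNAJB1, HSPA1A and HSPA1B overlap between the groups.

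HSF1 showed the largest change of the 10 genes. Its normalised level was 173, 184 and 178 CPM (reads of the gene scaled to a common library size, with effective library sizes from TMM, edgeR's trimmed mean of M-values) in the 3 JNJ libraries, against 111, 114.5 and 107 CPM in the 3 DMSO libraries. Every JNJ library stood well above every DMSO library, and the gap was many times the spread within either group. HSF1 averaged 178 ± 5.36 CPM with JNJ and 111 ± 3.8 CPM with DMSO (SD, n = 3 each), a 1.605-fold difference (95% interval 1.5 to 1.71). In edgeR's quasi-likelihood test the log2 fold change was 0.68 (SE 0.05, adjusted p = 2.69e-11), and it lay between 0.62 and 0.70 and was called under all 13 alternatives that could change it. A change of this size was not rare in these libraries: 5.89% of all genes tested had a larger log2 fold change, and 807 genes called higher had a larger fold. HSF1 lies on chromosome 8 from 144291591 to 144314722 on the plus strand (GENCODE 29, GRCh38). At their ends 139 bases, 2.62% of the HSF1 exons, overlap the last exons of DGAT1 on the opposite strand. DGAT1, an enzyme of triglyceride synthesis, went the other way, at 44.9 ± 1.95 CPM with JNJ and 60.02 ± 3.07 CPM with DMSO (log2 fold change -0.42, adjusted p = 1.61e-06). Which strand was counted is not stated in any source used. On the sense strand, no stretch of 50 bases in the HSF1 transcripts stood in another gene's transcripts. That search could not see the overlap with DGAT1 on the opposite strand.

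Among genes that act on or beside HSF1, 2 of 10 tested were higher and 1 was lower, close to the 20.0% and 17.1% of all genes. Their median log2 fold change was -0.05. The number lower was 0 without DMSO library 1 or 2, 2 without JNJ library 2 and 4 with upper-quartile scaling. HSF4, another heat shock factor known chiefly from the lens, reached 26.7, 29.3 and 26.0 CPM with JNJ, against 17.96, 17.7 and 17.9 CPM with DMSO (log2 fold change 0.62, adjusted p = 1.49e-07). HDAC6, a cytosolic deacetylase that binds ubiquitinated proteins and takes part in HSF1 activation, averaged 180.5 ± 3.05 CPM with JNJ and 131 ± 4.60 CPM with DMSO (0.47 on the log2 scale, adjusted p = 1.16e-08). HSF4 and HDAC6 therefore moved in the same direction as HSF1, each with no overlap between the groups, as for 47.0% of all genes. HSBP1L1, a relative of the HSF1-binding protein HSBP1, was lower at 22.6 ± 1.21 CPM with JNJ and 26.3 ± 1.80 CPM with DMSO (-0.21, adjusted p = 0.0189). That call was lost without DMSO library 1 (adjusted p = 0.0906), DMSO library 2 (0.0683) or JNJ library 1 (0.0790). HSF2, the factor that can pair with HSF1 in mixed trimers, averaged 7.61 ± 0.434 CPM with JNJ and 8.04 ± 0.461 CPM with DMSO and did not pass the test (adjusted p = 0.615). HSF2 is outside the rule for named genes and was added after its values were seen.

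The genes whose log2 CPM over the 6 libraries was most like that of HSF1, out of 7939 ranked, were STAT6 (Pearson r = 0.9998), WDR59 (r = 0.9995) and SLC4A2 (r = 0.9994). STAT6 is a transcription factor of interleukin-4 signalling, WDR59 a subunit of the GATOR2 complex upstream of mTORC1, and SLC4A2 an anion exchanger. Their fold changes differed in size, with log2 values of 0.61 for STAT6, 0.86 for WDR59 and 1.02 for SLC4A2 beside 0.68 for HSF1. The 6 points fall into the 2 treatment groups and share library and depth, and 1080 genes had an r of at least 0.95 with HSF1. For HSPH1 the most like were TNIP1 (r = 0.998), PSD4 (r = 0.997) and POLG (r = 0.997), and 919 genes reached 0.95.

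**Figure D2:**
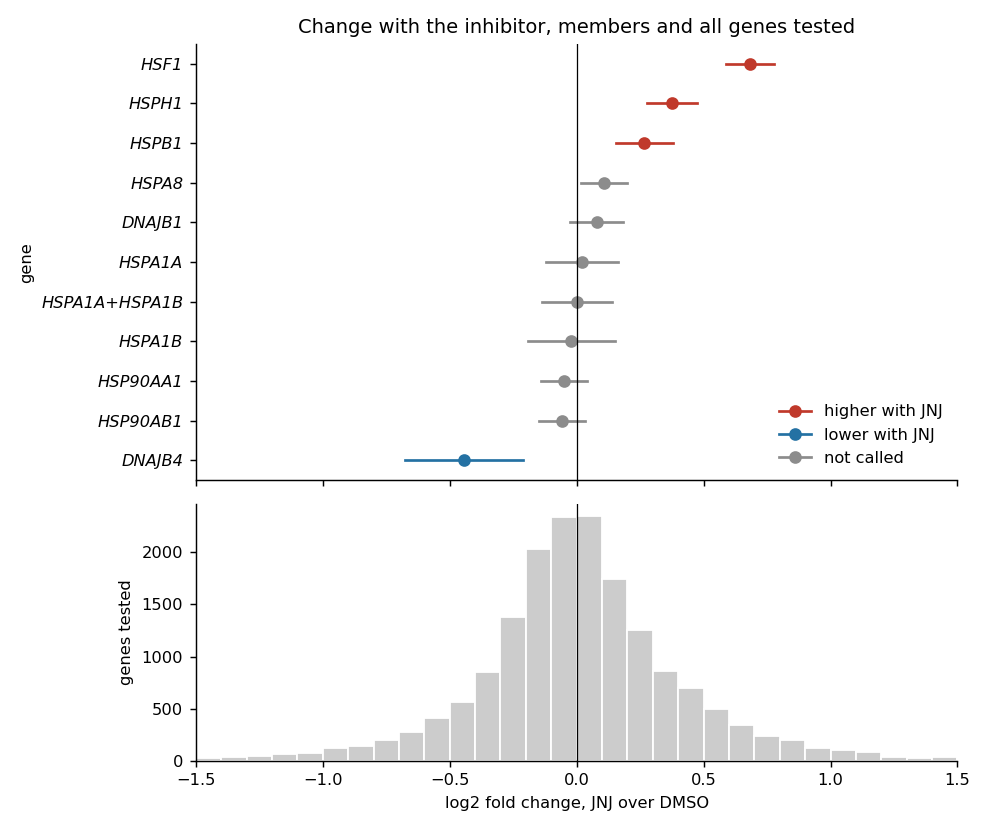
Upper panel: log2 fold change of JNJ over DMSO for each of the 10 genes, and for HSPA1A and HSPA1B summed as 1 gene, with 95% intervals from edgeR's quasi-likelihood fit. Lower panel: the same quantity for all 17371 genes tested, as a histogram on the same axis, with fold changes beyond the axis limits left out. HSF1 at 0.68 and DNAJB4 at -0.44 lie at the 2 ends, and the intervals of HSPA1A, HSPA1B, their sum, HSP90AA1, HSP90AB1 and DNAJB1 cross 0.

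The promoter windows of these genes were read for the arrangement to which HSF1 is known to bind. RefSeq windows on GRCh38.p14, reaching from 250 bases before the annotated start to 50 after it, were available for 9 of the 10 genes. The motif searched was the pair GAANNTTC or TTCNNGAA, where N is any base. Each of these reads the same on the opposite strand, and neighbouring pairs may share a unit. Runs of 3 alternating units, GAANNTTCNNGAA or its reverse complement TTCNNGAANNTTC, were counted too, and each such run holds 2 overlapping pairs. Windows follow 1 annotated start per gene. Of 35114 RefSeq windows, 13.5% held a pair and 0.49% held 3 alternating units. A pair stood in 4 of the 9 windows, those of HSPB1, HSPA1A, HSPA1B and HSPA8, and that of HSPA8 alone held 3 alternating units, at 2 places. A match is a description of the letters and not a bound site. Only exact letters in 1 window per gene were searched, so a window without a pair does not show that HSF1 cannot bind at the gene. The stretches below show how the units lie in genes with different responses, with the units in capitals, 10 flanking bases on either side and all sequences written 5′ to 3′ on the strand of the gene.

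HSPB1, chr7:76302481-76302508, plus strand: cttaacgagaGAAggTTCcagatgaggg
HSPA1A, chr6:31815427-31815454, plus strand: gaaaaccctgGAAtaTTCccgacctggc
HSPA1B, chr6:31827623-31827650, plus strand: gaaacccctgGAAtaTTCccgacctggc
HSPA8, chr11:123062344-123062376, minus strand: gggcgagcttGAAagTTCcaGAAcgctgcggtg
HSPA8, chr11:123062169-123062201, minus strand: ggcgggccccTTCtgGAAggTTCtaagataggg

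Of the 4 genes with such a pair, HSPB1 was called higher and HSPA1A, HSPA1B and HSPA8 were not called. Of the 5 genes whose window held none, HSPH1 was higher, DNAJB4 was lower, and HSP90AA1, HSP90AB1 and DNAJB1 were not called. In the wider chaperone lists below, 20 of the 90 genes with a window held a pair. Of these, 19 were tested, with 5 higher, 6 lower and 8 not called, and of the 66 tested genes without a pair 11 were higher, 14 lower and 41 not called, beside 20.0% higher and 17.1% lower over all genes. No test compared genes with and without a pair.

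There were 5 genes of the wider lists with 3 alternating units, HSPA6, DNAJA1, DNAJB6, CHORDC1 and SERPINH1, and their calls went both ways. CHORDC1, an HSP90 co-chaperone, had the longest run, 5 units in a row, and 3 of these genes were called in the test. CHORDC1 and HSPA6 are outside the rule for named genes and were added after their values were seen, for these motifs. Shown are the 3 called genes, 2 of them higher with JNJ and 1 lower.

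CHORDC1, chr11:90223077-90223119, minus strand, higher with JNJ: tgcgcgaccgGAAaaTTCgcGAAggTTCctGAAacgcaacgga
SERPINH1, chr11:75562167-75562199, plus strand, higher with JNJ: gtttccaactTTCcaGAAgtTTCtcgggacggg
DNAJB6, chr7:157336863-157336895, plus strand, lower with JNJ: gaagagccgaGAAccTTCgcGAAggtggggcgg

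CHORDC1 was at 98.7, 88.8 and 95.9 CPM with JNJ, against 73.1, 78.2 and 76.3 CPM with DMSO (log2 fold change 0.32, SE 0.05, adjusted p = 2.43e-05 in edgeR's test). SERPINH1, the collagen chaperone HSP47 of the endoplasmic reticulum, averaged 78.2 ± 3.52 CPM with JNJ and 52.8 ± 1.82 CPM with DMSO (0.56, adjusted p = 4.69e-09). DNAJB6, a J-domain protein that holds back aggregation, averaged 80.2 ± 2.14 CPM with JNJ and 102 ± 2.68 CPM with DMSO (-0.35, adjusted p = 1.86e-06). Runs of at least 3 alternating units thus stood in the windows of genes that changed in opposite directions. HSPA6, an HSP70 that is nearly silent without heat stress in human cells, averaged 4.89 ± 0.931 CPM with JNJ and 4.04 ± 0.972 CPM with DMSO and did not pass the test (adjusted p = 0.208).

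HSPH1 encodes HSP110, which swaps the nucleotide of HSP70 and works with it to pull apart aggregates. Its level was 101, 104 and 96.3 CPM in the JNJ libraries, against 78.7, 78.1 and 75.8 CPM in the DMSO libraries. All JNJ libraries lay above all DMSO libraries. HSPH1 averaged 101 ± 3.82 CPM with JNJ and 77.5 ± 1.54 CPM with DMSO (SD, n = 3 each), 1.30-fold higher (log2 fold change 0.38, SE 0.05, adjusted p = 8.98e-07 by edgeR with Benjamini-Hochberg adjustment). It was called under all 13 alternatives that could change it, with log2 fold changes between 0.32 and 0.41. HSPH1 lies on chromosome 13 from 31134974 to 31162388 on the minus strand. On the sense strand, no stretch of 50 bases of its transcripts was shared with another gene.

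HSPA1A and HSPA1B encode the stress-inducible HSP70, the classical output of HSF1, and neither passed the test. HSPA1A was at 42.9, 49.4 and 47.6 CPM with JNJ, against 50.3, 47.2 and 40.5 CPM with DMSO. HSPA1B was at 29.4, 37.8 and 28.99 CPM with JNJ, against 35.7, 32.5 and 30.0 CPM with DMSO. For both genes the libraries of the groups were interleaved. The fold of JNJ over DMSO was 1.02 for HSPA1A (95% interval 0.920 to 1.12, adjusted p = 0.834) and 0.985 for HSPA1B (0.875 to 1.11, adjusted p = 0.868).

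Both are neighbouring genes of 1 exon block on the plus strand of chromosome 6, HSPA1A from 31815464 to 31817946 and HSPA1B from 31827735 to 31830255, and their transcripts share most of their sequence. Of all distinct stretches of 50 bases in the HSPA1A transcripts, 71.3% also stood in transcripts of other genes, and for HSPA1B the share was 73.5%. Reads from such stretches cannot be placed on a single gene, and how they were counted is not stated in any source used. Taken as 1 gene, HSPA1A and HSPA1B had 72.3, 87.3 and 76.6 CPM with JNJ, against 86.0, 79.7 and 70.5 CPM with DMSO. The summed fold was 1.002 (95% interval 0.911 to 1.10), and the libraries of the summed gene were interleaved between the groups. The ratio of HSPA1A to HSPA1B counts was 1.47 ± 0.169 with JNJ and 1.41 ± 0.0521 with DMSO (two-sided exact permutation p = 0.70, where 0.10 is the smallest that 3 against 3 libraries allow).

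**Figure D3:**
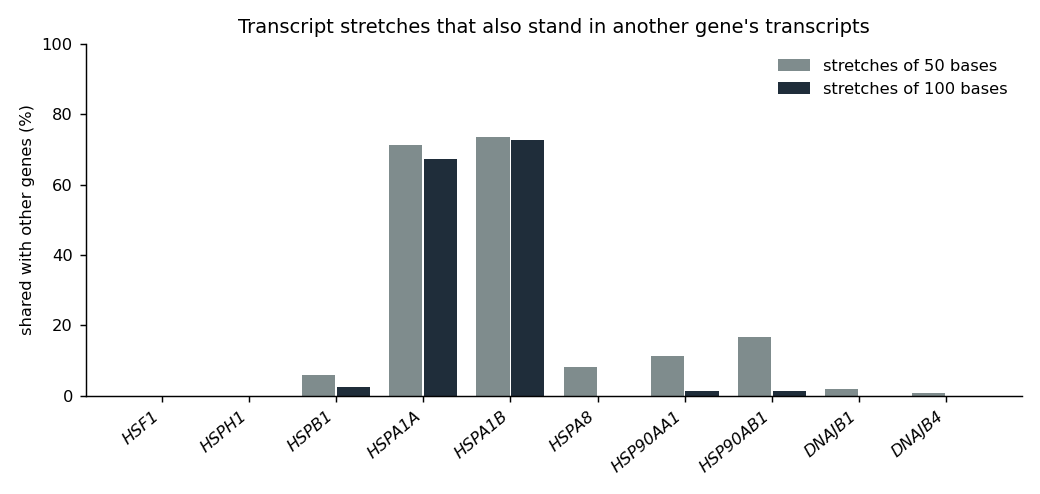
Percentage of distinct stretches of 50 bases (grey) and of 100 bases (dark) in the transcripts of each of the 10 genes that also stand in the transcripts of another gene, in GENCODE 29. Transcripts were compared on the sense strand only. HSPA1A and HSPA1B share over 67% at both lengths, HSP90AB1 16.6% and HSP90AA1 11.3% at 50 bases, and HSF1 and HSPH1 share 0 at either.

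HSPA8 encodes HSC70, the constitutive HSP70 that folds new proteins and uncoats clathrin vesicles. Its level was 725, 714 and 704 CPM with JNJ, against 642, 662 and 682 CPM with DMSO. The lowest JNJ library stood above the highest DMSO library, yet HSPA8 did not pass the test (fold 1.08, log2 fold change 0.11, SE 0.04, adjusted p = 0.0548 in edgeR). It was called higher with DESeq2 (adjusted p = 0.0309), with limma-voom (0.0264) and without DMSO library 3 (0.0425), and not under the other 11 alternatives. The log2 fold change was 0.05 with upper-quartile scaling. HSPA8 lies on chromosome 11 from 123057489 to 123063230 on the minus strand. The 17 pseudogene rows of HSPA8 in the table held at most 0.508% of its counts in any library, and the most abundant of them, HSPA8P1, was not called (adjusted p = 0.421).

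Among 7 other tested genes of the cytosolic HSP70 and HSP110 family, 1 was higher, 1 was lower and 5 did not pass the test. Without JNJ library 2 the counts were 0 higher and 2 lower, and without DMSO library 2 they were 1 and 2. HSPA4L, a testis-enriched relative of HSP110, was lower at 8.75 ± 0.659 CPM with JNJ and 12.2 ± 0.136 CPM with DMSO (log2 fold change -0.48, adjusted p = 0.000269). HSPA4, the HSP110 relative APG-2, averaged 131 ± 0.905 CPM with JNJ and 131 ± 3.45 CPM with DMSO (log2 fold change -0.00, adjusted p = 0.964). Of the 3 cytosolic HSP110 genes, HSPH1 was thus higher, HSPA4L lower and HSPA4 not called. HSPA14, a ribosome-associated HSP70, was higher at 7.79 ± 0.383 CPM with JNJ and 6.06 ± 0.409 CPM with DMSO (0.36, adjusted p = 0.0149). The HSPA14 call was lost without DMSO library 1 (adjusted p = 0.0744) or JNJ library 2 (0.0579). HSPA1L, the testis HSP70 that neighbours HSPA1A, averaged 2.42 ± 0.817 CPM with JNJ and 3.31 ± 0.698 CPM with DMSO (-0.44, adjusted p = 0.115). HSPA1L passed the test only without DMSO library 2 (adjusted p = 0.0450) or JNJ library 2 (0.0104).

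The cytosolic HSP90 genes, which hold kinases and steroid receptors in a ready state, did not pass the test. HSP90AA1, the inducible form, was at 696, 731 and 677 CPM with JNJ, against 732, 718 and 728 CPM with DMSO (fold 0.966, 95% interval 0.906 to 1.03, adjusted p = 0.417). The ranges overlapped, with JNJ library 2 among the DMSO values. HSP90AB1, the constitutive form, was at 592, 608 and 621 CPM with JNJ, against 628, 622 and 645 CPM with DMSO (log2 fold change -0.06, SE 0.04, adjusted p = 0.330). The JNJ libraries of HSP90AB1 all lay below the DMSO libraries by a narrow gap, and the gene was called lower only with upper-quartile scaling (-0.12, adjusted p = 0.0412). The ratio of HSP90AA1 to HSP90AB1 counts was 1.16 ± 0.0591 with JNJ and 1.15 ± 0.0200 with DMSO (two-sided exact permutation p = 0.90, smallest possible 0.10). HSP90AA1 lies on chromosome 14 from 102080738 to 102139699 on the minus strand and HSP90AB1 on chromosome 6 from 44246166 to 44253888 on the plus strand. Their pseudogenes HSP90AA2P, HSP90AB2P and HSP90AB3P had a mean of at least 1 CPM, and none of these was called (adjusted p 0.640 to 0.697). Pseudogene rows held at most 0.722% of HSP90AB1 counts and 0.286% of HSP90AA1 counts.

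J-domain proteins bring clients to HSP70 and start its ATP cycle. DNAJB1, the HSP40 that HSF1 is known to induce, was at 98.5, 110 and 101 CPM with JNJ, against 102, 97.2 and 94.1 CPM with DMSO. These libraries overlapped and DNAJB1 did not pass the test (fold 1.06, log2 fold change 0.08, SE 0.05, adjusted p = 0.242). DNAJB1 lies on chromosome 19 from 14514770 to 14529770 on the minus strand, and 5.75% of its exons overlap those of TECR on the opposite strand. TECR, an enzyme of fatty acid elongation, was lower (-0.15, adjusted p = 0.0225).

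DNAJB4, a close relative of DNAJB1, was the only one of the 10 genes called lower. It was at 7.20, 6.09 and 6.02 CPM with JNJ, against 9.08, 8.404 and 8.74 CPM with DMSO. The highest JNJ library stayed below the lowest DMSO library. DNAJB4 averaged 6.44 ± 0.661 CPM with JNJ and 8.74 ± 0.339 CPM with DMSO (SD, n = 3 each), which made it 1.36-fold lower with JNJ (log2 fold change -0.44, SE 0.11, adjusted p = 0.00299 in edgeR). It rested on 142 to 177 reads per JNJ library and 232 to 272 per DMSO library, the fewest of the 10 genes, and its SE was the widest. It was nevertheless called under all 13 alternatives that could change it (-0.53 to -0.40). DNAJB4 lies on chromosome 1 from 77979175 to 78017964 on the plus strand.

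Among 13 other cytosolic J-domain genes tested, 4 were higher, 2 were lower and 7 did not pass the test, with a median log2 fold change of -0.01. Only 2 were higher without DMSO library 1 or without JNJ library 1 (median 0.03 in the second case), and with upper-quartile scaling 2 were higher and 4 lower. DNAJB6, whose promoter stretch is shown above, was the lower one with the smallest p. DNAJB2, a neuronal J-domain protein that feeds clients to the proteasome, averaged 79.1 ± 7.09 CPM with JNJ and 62.7 ± 1.32 CPM with DMSO (0.34, adjusted p = 4.31e-05). DNAJA4 averaged 19.1 ± 1.28 CPM with JNJ and 14.9 ± 1.91 CPM with DMSO (0.36, adjusted p = 0.00199). DNAJA1, the most abundant of the list and another gene with 3 alternating units in its window, averaged 151 ± 9.58 CPM with JNJ and 152 ± 4.18 CPM with DMSO (adjusted p = 0.877). J-domain genes of 1 class thus moved in different directions: of the class B genes named here DNAJB2 was higher, DNAJB4 and DNAJB6 were lower and DNAJB1 was not called.

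HSPB1 encodes HSP27, a small heat shock protein that holds unfolded proteins without using ATP and binds actin. Its level was 49.3, 53.8 and 54.5 CPM with JNJ, against 44.2, 43.3 and 43.5 CPM with DMSO. All JNJ libraries lay above the DMSO libraries, which were close to each other. HSPB1 averaged 52.5 ± 2.84 CPM with JNJ and 43.7 ± 0.478 CPM with DMSO (SD, n = 3 each), 1.20-fold higher (log2 fold change 0.27, SE 0.05, adjusted p = 0.000385 in edgeR), and was called under all 14 alternatives (0.21 to 0.31). HSPB1 lies on chromosome 7 from 76302544 to 76304295 on the plus strand, and 5.84% of its stretches of 50 bases stood in other genes, its pseudogenes HSPB1P1 and HSPB1P2. Those pseudogene rows held at most 0.333% of its counts. Of 9 other small heat shock genes only HSPB6, HSPB8 and IFT25 had enough reads to test, and 0 of these were called in edgeR, 0 by DESeq2 or limma-voom, and 0 had an unadjusted p under 0.05 in edgeR. HSPB6, a small heat shock protein of muscle, had 0.582 ± 0.0731 CPM with JNJ and 0.399 ± 0.0966 CPM with DMSO, HSPB8 had 0.749 ± 0.411 CPM with JNJ and 0.635 ± 0.0774 CPM with DMSO, and IFT25, long named HSPB11, had 9.49 ± 0.431 CPM with JNJ and 9.33 ± 0.342 CPM with DMSO.

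Divided by exonic length, the levels of the 10 genes spanned about 2 orders of magnitude. HSP90AB1 led at 204 ± 4.88 CPM per kb with JNJ and 212 ± 4.09 CPM per kb with DMSO. HSPA8 stood at 147 ± 2.17 CPM per kb with JNJ and 137 ± 4.11 with DMSO, and HSP90AA1 at 134 ± 5.27 with JNJ and 138 ± 1.40 with DMSO. HSPA8 and HSP90AA1 differed by less than their spread in the DMSO libraries and not in the JNJ libraries. HSF1 had 33.5 ± 1.01 CPM per kb with JNJ and 20.9 ± 0.716 with DMSO. With JNJ it was within the spread of HSPB1 (32.2 ± 1.74 CPM per kb), while with DMSO it lay below HSPB1 (26.7 ± 0.293) and DNAJB1 (26.7 ± 1.16). HSPA1A had 18.8 ± 1.35 CPM per kb with JNJ and 18.5 ± 2.02 with DMSO, and HSPA1B had 12.7 ± 1.98 with JNJ and 12.97 ± 1.13 with DMSO. HSPH1 had 12.0 ± 0.456 CPM per kb with JNJ, close to HSPA1B, and 9.24 ± 0.184 with DMSO, below HSPA1B. DNAJB4 was last at 1.701 ± 0.175 CPM per kb with JNJ and 2.31 ± 0.0895 with DMSO. These lengths come from all annotated exons and not from the transcripts in use, so levels between genes are approximate. The levels of HSPA1A and HSPA1B also depend on how reads from their shared stretches were counted, which is not stated. For HSPA1B the same holds for its overlap with the processed transcript.

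The summed level of the 10 genes was 2515, 2597.5 and 2515 CPM with JNJ, against 2434, 2423 and 2455 CPM with DMSO. The JNJ sums lay above the DMSO sums, with means of 2542 ± 47.7 CPM with JNJ and 2437.5 ± 16.0 CPM with DMSO, a ratio of 1.04. With upper-quartile scaling the means were 2491 ± 61.7 CPM with JNJ and 2488 ± 13.1 CPM with DMSO, a ratio of 1.0015, so the difference in the sum depended on the scaling. As a percentage of all counts, JNJ library 3 (0.248%) lay below DMSO library 3 (0.249%). The sum includes HSF1, a transcription factor and not a chaperone, at 178 CPM with JNJ and 111 CPM with DMSO. HSF1 made up 7.002% of the summed reads of the 10 genes with JNJ and 4.55% with DMSO. HSPA8, HSP90AA1 and HSP90AB1 made up 28.1%, 27.6% and 23.9% with JNJ, against 27.2%, 29.8% and 25.9% with DMSO.

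The genes that work with these chaperones were counted in 9 lists, which held 106 genes and 98 tested. Of these, 19 were higher, 22 were lower and 57 did not pass the test, beside 20.0% higher and 17.1% lower over all genes. The median log2 fold change over the 98 genes was -0.02. The same shares over all genes are the background for the count of each single list, above and below.

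**Figure D4:**
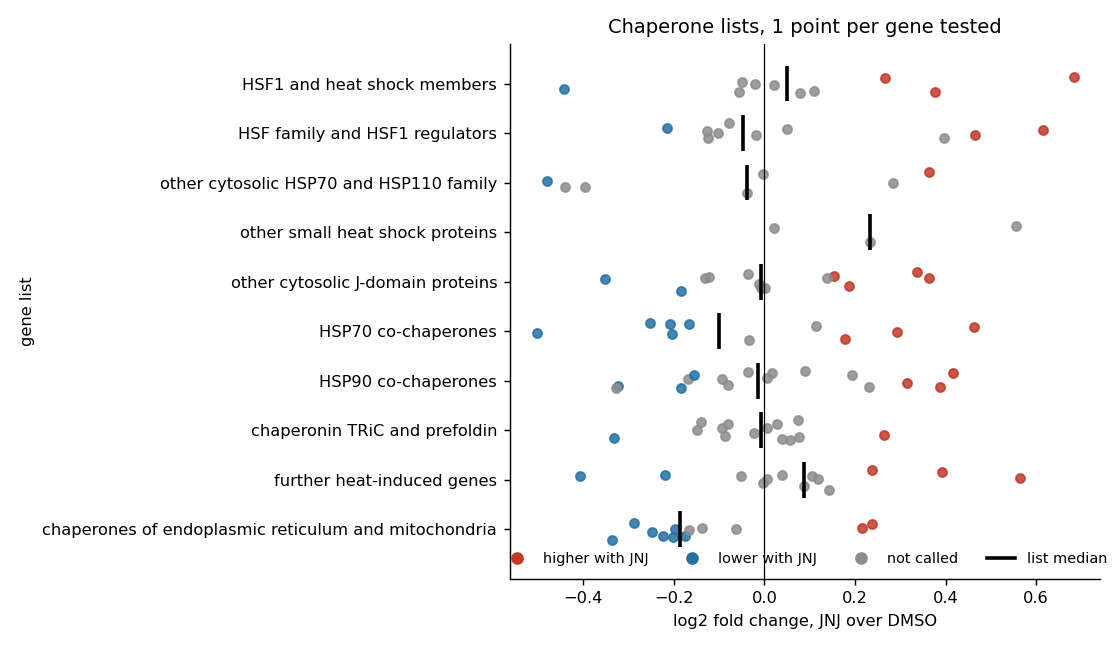
Log2 fold change of JNJ over DMSO for each tested gene of the 10 heat shock genes (top row) and of the 9 wider chaperone lists, with red for genes called higher, blue for lower and grey for not called at an adjusted p under 0.05, and a black bar at each list's median. The medians lie between -0.19, for chaperones of endoplasmic reticulum and mitochondria, and 0.23, for the 3 other small heat shock genes. The value 0.23 is that of HSPB8, on 11 to 30 reads per library. The median of these 3 genes is -0.003 without JNJ library 1 and 0.47 without JNJ library 3.

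Of 10 tested HSP70 co-chaperones, which release nucleotides or hand clients on, 3 were higher, 5 lower and 2 not called. The number lower rested on single libraries: it was 1 without JNJ library 3 (3 higher) and 3 without JNJ library 1 (4 higher). STUB1, the ubiquitin ligase CHIP that marks chaperone clients for degradation, averaged 46.8 ± 4.14 CPM with JNJ and 34.0 ± 0.192 CPM with DMSO (log2 fold change 0.46, adjusted p = 1.83e-06). SGTA, which guides tail-anchored proteins, averaged 105.5 ± 1.03 CPM with JNJ and 86.1 ± 2.10 CPM with DMSO (0.29, adjusted p = 1.62e-05). BAG2, an inhibitor of CHIP, was lower at 7.55 ± 0.953 CPM with JNJ and 10.7 ± 0.375 CPM with DMSO (-0.50, adjusted p = 0.000594). STUB1 and BAG2 thus moved in opposite directions. ST13, the HSP70-interacting protein HIP, was higher at 135 ± 4.09 CPM with JNJ and 119 ± 9.51 CPM with DMSO (0.18, adjusted p = 0.00900), a call that was lost with upper-quartile scaling (0.0681), without DMSO library 1 (0.111) and without DMSO library 2 (0.0549).

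Of 16 tested HSP90 co-chaperones, 3 were higher (TSC1, SUGT1 and CHORDC1), 3 were lower and 10 did not pass the test. With upper-quartile scaling 5 were lower. CDC37, which loads kinases onto HSP90, was lower at 218 ± 9.87 CPM with JNJ and 273 ± 5.93 CPM with DMSO (log2 fold change -0.32, adjusted p = 4.12e-06). SUGT1, an adaptor that works with the CHORDC1 protein, averaged 42.2 ± 1.40 CPM with JNJ and 32.2 ± 0.548 CPM with DMSO (0.39, adjusted p = 6.15e-06). TSC1, a subunit of the mTORC1 inhibitor complex that also slows the ATPase of HSP90, averaged 96.9 ± 6.41 CPM with JNJ and 72.5 ± 3.88 CPM with DMSO (0.42, adjusted p = 1.34e-06). STIP1, the HOP protein that bridges HSP70 and HSP90, averaged 250.2 ± 4.90 CPM with JNJ and 256.5 ± 6.67 CPM with DMSO and was not called (adjusted p = 0.557).

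The chaperonin TRiC and prefoldin, which fold actin and tubulin, had 1 higher, 1 lower and 12 uncalled genes of 14. The number lower was 2 without DMSO library 2 or JNJ library 2, with RLE scaling and with the CPM filter, and 4 with upper-quartile scaling. TCP1, the first TRiC subunit, was higher at 108 ± 4.89 CPM with JNJ and 90.1 ± 3.70 CPM with DMSO (0.26, adjusted p = 0.000143). PFDN6, a prefoldin subunit, was lower at 25.5 ± 1.17 CPM with JNJ and 32.2 ± 1.40 CPM with DMSO (-0.33, adjusted p = 0.000196). VBP1, another prefoldin subunit, missed the threshold (-0.15, adjusted p = 0.0507). VBP1 was called lower under 5 of 13 alternatives, among them without DMSO library 2 (0.0377) and without JNJ library 2 (0.0389). CCT5, the most abundant of the list, was not called (-0.08, adjusted p = 0.171), though it was with upper-quartile scaling (-0.14, adjusted p = 0.0181).

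Of 13 further genes known to rise with heat, 3 were higher, 2 lower and 8 not called, and 5 were higher without JNJ library 1. Beside SERPINH1, ATF3, a stress transcription factor, was higher at 43.4 ± 5.14 CPM with JNJ and 33.1 ± 2.27 CPM with DMSO (0.39, adjusted p = 0.000113). PPP1R15A, the GADD34 subunit that restarts translation after stress, was lower at 215 ± 10.8 CPM with JNJ and 286 ± 16.0 CPM with DMSO (-0.41, adjusted p = 4.76e-07). HSPD1, the mitochondrial chaperonin HSP60, averaged 328 ± 12.96 CPM with JNJ and 309 ± 5.60 CPM with DMSO (adjusted p = 0.125).

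A list held 12 chaperones of the endoplasmic reticulum and mitochondria, which are governed by other stress pathways. It left out SERPINH1, HSPD1, HSPE1 and CLPB, counted above. Of these, SERPINH1 and CLPB (0.24, adjusted p = 0.00583 in edgeR) were higher, and HSPD1 and HSPE1 were not called. Of the 12, 2 were higher, 7 were lower and 3 did not pass the test, beside 20.0% higher and 17.1% lower over all genes. The median log2 fold change was -0.19. Both higher genes were mitochondrial. HSPA9 was the only mitochondrial gene among the lower ones, and the other lower genes were of the endoplasmic reticulum. The genes not called came from both compartments. HSPA9, HSPE1 and CLPB are outside the rule for named genes and were added after their values were seen. Without JNJ library 3, 1 was higher and 7 were lower. The number lower was 6 without DMSO library 1, 8 with RLE scaling, and 9 with upper-quartile scaling or without JNJ library 2. HSPA5, the BiP chaperone, was at 1361, 1575.5 and 1484 CPM with JNJ, against 1985, 1876 and 1717 CPM with DMSO (-0.34, adjusted p = 4.69e-05). HSP90B1, the endoplasmic reticulum form of HSP90 (GRP94), averaged 1048 ± 34.8 CPM with JNJ and 1279 ± 66.1 CPM with DMSO (-0.29, adjusted p = 4.21e-05). Both were called lower, while the cytosolic HSPA8, HSP90AA1 and HSP90AB1 were not called. The groups did not overlap for HSPA5 and HSP90B1, and they did not for HSPA8 and HSP90AB1 either. The difference between the cytosolic and the endoplasmic reticulum genes was not tested. HSPA13, an HSP70 of microsomes, was also lower (-0.25, adjusted p = 0.000158).

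All 10 biliary and simple epithelial markers were detected, led by KRT7 at 2841.5 ± 99.2 CPM with JNJ and 3646 ± 100.2 CPM with DMSO. Their summed level was 4797 to 5081 CPM with JNJ and 5925 to 6194 CPM with DMSO, with 2 genes higher and 5 lower, and its part in the values of the heat shock genes was not tested. The 7 fibroblast markers summed to 0.770 to 1.67 CPM with JNJ and 0.610 to 0.905 CPM with DMSO. THY1 and COL3A1 had at most 1 read in any library. The 4 endothelial markers summed to 0.890 to 1.33 CPM with JNJ and 0.642 to 1.05 CPM with DMSO. The 6 leukocyte markers summed to 3.38 to 3.73 CPM with JNJ and 2.14 to 2.95 CPM with DMSO. Nearly all of it was CD14, which was called higher (log2 fold change 0.52, adjusted p = 0.0266 in edgeR). PTPRC had at most 1 read in any library. Of the 6 hepatocyte markers, TTR was at 0 in every library and ALB averaged 0.239 CPM with JNJ and 0.159 CPM with DMSO, while SERPINA1 gave nearly all of their sum of 353 to 389.6 CPM with JNJ and 337 to 351 CPM with DMSO.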

How the data were processed

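Polyadenylated RNA of 6 HuCCT-1 libraries was sequenced, 3 with JNJ-64619178 and 3 with DMSO. Per the labels' protocols, a stranded Illumina mRNA kit was used. The authors deposited raw counts per gene for all 6 libraries in 1 table. The submitters' processing notes name edgeR, limma, featureCounts 1.6.0, STAR 2.7.9a and FastQC 0.11.8 without stating their roles. The same notes name a mouse build (GRCm39), while every row carries a human Ensembl identifier, and the build used for counting is therefore uncertain. No source used states the annotation, the strand setting or the treatment of multimapping reads.

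Of 60649 rows, 44 repeated identifiers with 0 counts were dropped. Symbols came from a table of gene names for 60463 genes and from GENCODE 29 for 130, and positions, exonic lengths and overlaps from GENCODE 29 on GRCh38, which may differ from the authors' annotation. Low counts were filtered by filterByExpr of edgeR (at least 10 reads, total at least 15) and scaled by TMM. The groups were compared with edgeR 4.0.16 (glmQLFit and glmQLFTest on the group alone), with Benjamini-Hochberg adjustment over all 17371 genes and a threshold of 0.05. The coefficient of biological variation, as edgeR names the spread beyond counting noise, was 4.89%. Between libraries of 1 group the chi-square per degree of freedom was 2.67 to 8.94, more than counting noise alone gives. Whether this spread is technical or biological cannot be told. Intervals are at 95%. Ratios within a library were compared by exact permutation over libraries.

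The 10 genes and the wider lists were chosen with earlier results of these data known. Named from each wider list were the 3 tested genes with the smallest p and the most abundant one, besides pseudogenes of the 10 genes with a mean of at least 1 CPM, and for HSF1 and HSPH1 the 3 tested protein-coding genes of highest r among those averaging at least 4 log2 CPM. Promoter sequences are RefSeq's on GRCh38.p14. Alternatives were DESeq2 1.42.0, limma-voom (limma 3.58.1), scaling by RLE or the upper quartile, keeping genes of low count, requiring CPM above 1 in 3 or more libraries, a block for replicate numbers, pseudogene rows summed with their gene, and each library left out. R 4.3.3 and Python 3.11.15 were used.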

Additional observations from a re-analysis of the deposited data

How the results depend on the processing

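HSF1, HSPH1, HSPB1 and DNAJB4 kept their direction and their call under all alternatives run (14 for HSPB1, and 13 for the others, which have no pseudogene rows to sum), and HSF1 ranged between 0.62 and 0.70 on the log2 scale. With upper-quartile scaling 2 of the 10 genes were lower in place of 1, 34 genes of the wider lists were lower and 16 higher in place of 22 and 19, and the log2 difference of the summed level was 0.0018. HSPA1A and HSPA1B as 1 gene turned sign around 0 with DESeq2 (-0.0059), RLE (-0.0047), upper-quartile scaling (-0.056) and no filter (-0.0086), and ranged between -0.083 and 0.065 with a library left out. HSPA1A was at -0.036 with upper-quartile scaling. With a library left out, HSPA1A ranged between -0.074 and 0.085, HSPA1B between -0.16 and 0.046, HSPA4 between -0.026 and 0.0070, and DNAJA1 between -0.060 and 0.033. HSPB8 ranged between -0.29 and 0.47, on 11 to 30 reads per library. IFT25 was at -0.038 with upper-quartile scaling and between -0.013 and 0.060 with a library left out. None of these was called under any alternative run, and the cause was not tested. With a library left out, 5304 to 6097 genes were called in all.

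The labels number the replicates 1 to 3 in both groups. The deviations of same-numbered libraries correlated at -0.074, -0.014 and -0.0049, and those of differently numbered libraries between -0.075 and 0.089. Same-numbered libraries thus showed no shared signal, which cannot tell whether they were prepared together. With the replicate number as a block, 6132 genes were called, 3 of the 10 genes were higher and 1 lower, and HSF1 was at 0.68. Among the 10 genes DNAJB4 had the fewest reads and the widest standard error, and all values rest on 3 libraries a group at 1 dose and 1 time.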
